A study of Arabidopsis thaliana with 4 samples.

Results

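The genes JAZ1 to JAZ10 encode JASMONATE ZIM-DOMAIN (JAZ) proteins, which are repressors of jasmonate signalling. They were taken by their Arabidopsis gene identifiers and are 10 of the 32833 genes counted. No measured value set which genes were members, but the set was chosen with earlier results of these data known. All 10 were detected in all 4 libraries and passed the filter on low counts. Nuclei came from root tips of wild-type Arabidopsis thaliana, ecotype Col-0, and RNA and accessible chromatin were counted in the same nucleus. The 2 control libraries came from plants on 1/2MS medium, and the 2 stress libraries came from plants on the same medium with 250 mM sorbitol, an osmotic agent. Both groups carried the same genotype, had the same age of 10 days and were described by the study as biological replicates. The tips were chopped in cold buffer to free the nuclei in both groups, and plants were on sorbitol for the whole growth period, so an early and a late response to stress cannot be told apart. Below, 4 values in a row follow the order control replicate 1, control replicate 2, stress replicate 1 and stress replicate 2.

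Jasmonates are lipid-derived hormones made after wounding, attack and some abiotic stresses, and they slow root growth. Without the active form, jasmonoyl-isoleucine, JAZ proteins bind MYC transcription factors and bring in the adaptor NINJA and the TOPLESS corepressors. The hormone joins JAZ to the F-box receptor COI1, JAZ is degraded, and the freed MYC factors switch on target genes, among them most JAZ genes, so that JAZ transcripts serve as a readout of the pathway and as its feedback brake.

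MYC factors bind the G-box, CACGTG. The 250 bases before each gene start were therefore read from the RefSeq genome TAIR10.1, whose nuclear gene starts lay within 50 bases of those in the files for 32542 of 32548 genes. Read on both strands, CACGTG occurred in this window in 4 of the 10 members, JAZ2, JAZ3, JAZ7 and JAZ8, and in 5.9% of 32546 promoters. The shorter core ACGTG, which every G-box contains, occurred in 8 members and in 21.8% of promoters, and the GCC-box GCCGCC occurred in 0 members and in 1.9% of promoters. The W-box core TTGAC occurred in 5 members and in 44.3% of promoters. The 4 promoters with a G-box are shown with that of JAZ10, the member with the largest difference between stress and control, which held neither CACGTG nor ACGTG in this window. They lie at chr1:28150447-28150696 (minus strand), chr3:6119457-6119706 (plus strand), chr2:14572780-14573029 (plus strand), chr1:10596102-10596351 (plus strand) and chr5:4218536-4218785 (plus strand), and are written from the far end to the base before the gene start, with CACGTG in capitals:
JAZ2: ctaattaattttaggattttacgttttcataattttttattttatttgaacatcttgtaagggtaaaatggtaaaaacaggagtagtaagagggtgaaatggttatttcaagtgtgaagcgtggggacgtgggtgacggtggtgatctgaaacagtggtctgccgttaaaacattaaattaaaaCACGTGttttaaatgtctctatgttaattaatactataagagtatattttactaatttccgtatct
JAZ3: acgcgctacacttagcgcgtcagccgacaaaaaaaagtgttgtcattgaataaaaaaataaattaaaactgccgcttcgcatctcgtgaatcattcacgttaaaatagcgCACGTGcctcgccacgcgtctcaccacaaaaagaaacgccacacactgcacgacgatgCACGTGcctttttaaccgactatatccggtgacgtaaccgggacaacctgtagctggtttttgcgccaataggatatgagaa
JAZ7: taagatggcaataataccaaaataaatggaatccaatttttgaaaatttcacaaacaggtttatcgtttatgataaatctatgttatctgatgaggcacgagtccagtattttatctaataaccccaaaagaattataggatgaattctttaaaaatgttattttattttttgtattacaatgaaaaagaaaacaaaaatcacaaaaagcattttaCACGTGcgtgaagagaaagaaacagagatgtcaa
JAZ8: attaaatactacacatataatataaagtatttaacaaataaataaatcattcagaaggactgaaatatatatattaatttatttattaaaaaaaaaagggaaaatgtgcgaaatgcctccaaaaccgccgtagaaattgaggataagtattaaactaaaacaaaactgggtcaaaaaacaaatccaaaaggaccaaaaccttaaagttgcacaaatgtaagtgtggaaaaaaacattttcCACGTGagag
JAZ10: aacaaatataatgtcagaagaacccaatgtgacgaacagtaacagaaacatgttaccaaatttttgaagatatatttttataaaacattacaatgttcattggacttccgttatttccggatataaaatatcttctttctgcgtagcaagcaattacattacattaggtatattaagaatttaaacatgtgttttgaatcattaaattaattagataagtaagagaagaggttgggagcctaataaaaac
The G-box began 66 bases before the gene start in JAZ2, 34 in JAZ7 and 10 in JAZ8, and JAZ3 held 2 copies. A match is only a description of the letters.

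Barcodes with over 1000 and under 25000 RNA counts were kept as nuclei, which left 3213, 6133, 7687 and 6499 of 3431, 6631, 7827 and 6585 barcodes. The libraries held 17567594 to 37717096 RNA counts and a median of 3248 to 3863 per nucleus. Each pair of libraries shared 29 to 83 barcodes, 0.845% to 1.34% of the smaller library. Levels are CPM, the count of a gene scaled to the RNA counts of the summed nuclei of a library or class, and tests compare library sums, since nuclei are not replicates. The osmotic marker P5CS1, a proline synthesis gene, stood at 24.9, 23.3, 71.2 and 70.6 CPM, in the direction of the labels. Control replicate 2 stood apart from the other libraries in the JAZ genes, as shown first.

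JAZ transcripts were several-fold more abundant in control replicate 2 than in the other 3 libraries, and the 2 stress libraries were nearly alike. Summed over the 10 members, the level was 770, 2936, 878 and 953 CPM, from 13534, 88006, 33104 and 30179 counts. The stress libraries thus lay between the controls and close to control replicate 1. Between the controls, 9 of 10 members differed by more than 2-fold, all higher in control replicate 2, against 7.87% of the 20587 genes tested. The ratio of control replicate 2 to control replicate 1 ran from 1.08 in JAZ4 to 7.04 in JAZ7, with a median of 4.45 over the members and 1.03 over all genes. Between the stress libraries the larger over the smaller value reached at most 1.17 for any member. Both wounding and touch raise JAZ transcripts in Arabidopsis, and a list of 8 wound and touch genes summed to 1418, 1985, 1397 and 1458 CPM, highest in the same library. Only 5 of the 8 were higher in control replicate 2 than in control replicate 1, with a median ratio of 1.16 over the list. Of these, 1 was higher by over 2-fold, WRKY40 (366, 839, 382 and 404 CPM). Organelle transcripts took 2.71%, 1.59%, 1.94% and 1.98% of counts. The part of wounding, touch or organelle transcripts in the difference between the controls was not tested.

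**Figure D1:**
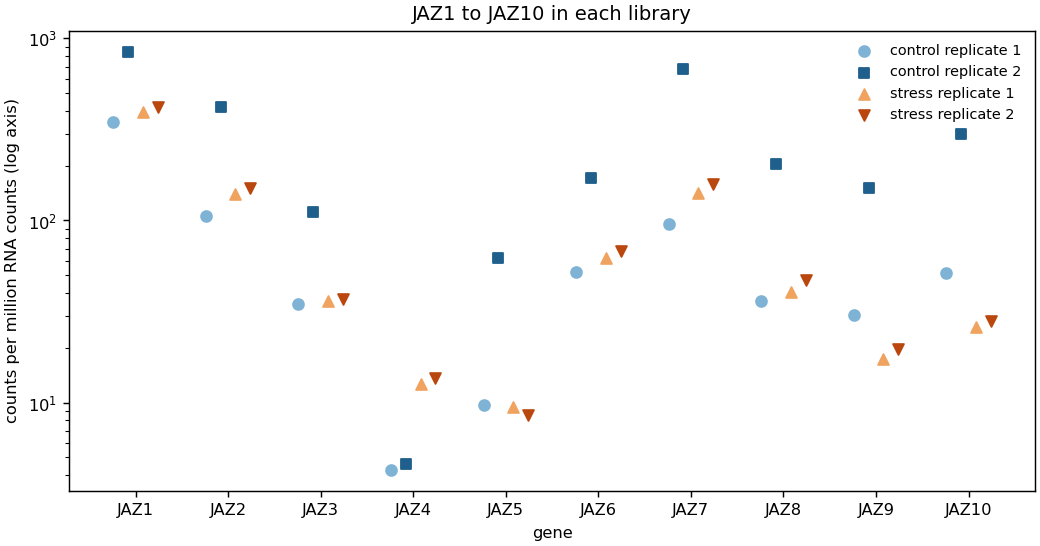
RNA level (CPM, log axis) of JAZ1 to JAZ10, with 1 point for each of the 2 control (blue) and 2 stress (orange) libraries. Control replicate 2 lies highest for every member but JAZ4, where both stress libraries, at 12.6 and 13.6, lie above both controls.

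Osmotic stress was compared with control in whole libraries with the quasi-likelihood test of edgeR over all 20587 genes, at a Benjamini-Hochberg adjusted p threshold of 0.05. JAZ4 rose, by 1.36 ± 0.13 (SE) on the log2 scale with an adjusted p of 0.0212, and it was the only member called. Over all genes 6.8% were called higher and 3.07% lower. The other 9 members had negative log2 differences, from -0.74 in JAZ1 to -2.88 in JAZ10, of which 0 were called, and 2 of them (JAZ9 and JAZ10) had an unadjusted p under 0.05. The median was -1.38 over the members and -0.00 over all genes, where the plain CPM scale puts the median gene at 0.16. Both stress values lay above both controls in 1 member (50.4% of all genes) and below both in 3 members, JAZ5, JAZ9 and JAZ10 (18.7% of all genes), while the groups overlapped in 6.

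JAZ1 and JAZ2 are close relatives that bind COI1 in the presence of the hormone, and JAZ2 acts in stomatal defence. JAZ1 (AT1G19180) had 349, 841, 393 and 422 CPM and a log2 difference of -0.74 ± 0.43 (adjusted p = 0.282, edgeR). JAZ2 (AT1G74950) had 106, 418, 139 and 150 CPM and a log2 difference of -1.05 ± 0.65 (adjusted p = 0.309, edgeR). In both genes the stress libraries lay between the controls, so the groups overlapped.

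JAZ5 and JAZ6 form another related pair, and both carry an EAR motif, a short stretch that can bind TOPLESS without NINJA. JAZ5 (AT1G17380) had 9.73, 62.6, 9.49 and 8.56 CPM and a log2 difference of -2.20 ± 0.89 (adjusted p = 0.164, edgeR). JAZ6 (AT1G72450) had 52.1, 171, 62 and 67.8 CPM and a log2 difference of -0.98 ± 0.57 (adjusted p = 0.285, edgeR). The stress values of JAZ5 were below both controls only by a small margin under control replicate 1, and those of JAZ6 lay between the controls.

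JAZ7 and JAZ8 also carry EAR motifs, and JAZ8 lacks the usual degron, so that it resists degradation when the hormone is present. JAZ7 (AT2G34600) had 96.2, 678, 142 and 159 CPM and a log2 difference of -1.55 ± 0.91 (adjusted p = 0.286, edgeR). JAZ8 (AT1G30135) had 36.1, 204, 40.5 and 47.2 CPM and a log2 difference of -1.65 ± 0.82 (adjusted p = 0.228, edgeR). Both had their highest value in control replicate 2 and their lowest in control replicate 1.

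JAZ3, JAZ4 and JAZ9 are close relatives. A truncated JAZ3 makes roots insensitive to jasmonate, and JAZ4 binds ICE1, a regulator of cold responses. JAZ3 (AT3G17860) had 34.9, 111, 36.1 and 37 CPM and a log2 difference of -1.20 ± 0.56 (adjusted p = 0.207, edgeR). JAZ9 (AT1G70700) had 30.2, 150, 17.4 and 19.7 CPM and a log2 difference of -2.47 ± 0.79 (adjusted p = 0.112, edgeR), with both stress libraries under both controls. JAZ4 (AT1G48500) went the other way, at 4.27, 4.6, 12.6 and 13.6 CPM, from 75, 138, 477 and 429 counts. It was also the only member whose controls were alike, so among these relatives the stress libraries stood above the controls for JAZ4, below them for JAZ9 and between them for JAZ3.

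JAZ10 is a feedback gene whose splice forms without a full degron escape degradation. JAZ10 (AT5G13220) had 51.6, 297, 26 and 28.2 CPM and a log2 difference of -2.88 ± 0.87 (adjusted p = 0.102, edgeR). Both stress libraries lay under both controls. JAZ10 lies at chr5:4218786-4221077 on the plus strand and overlaps AT5G02045 on the opposite strand by 71 bases, and whether the counting used strand is not given in the sources used here.

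Since control replicate 2 set most of the spread, each control was left out in turn. Without control replicate 1, 9 members were called lower, from -1.24 in JAZ1 to -3.64 in JAZ10, and JAZ4 was called higher at 1.32 (58.3% of genes called in either direction). Without control replicate 2, 3 members were called lower, JAZ5 (-0.33), JAZ9 (-0.94) and JAZ10 (-1.16), and 3 were called higher, JAZ2 (0.21), JAZ4 (1.38) and JAZ7 (0.41), among 60.7% of genes called. JAZ4, JAZ5, JAZ9 and JAZ10 were therefore called in the same direction against either control alone, while JAZ2 and JAZ7 were called in opposite directions. JAZ1, JAZ3, JAZ6 and JAZ8 had log2 differences of -0.01, -0.17, 0.08 and 0.05 without control replicate 2 and were not called. In these fits the lone control is assumed to vary like the stress pair, and without either stress replicate 0 genes of the whole table were called, against 2033 with all 4 libraries.

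**Figure D2:**
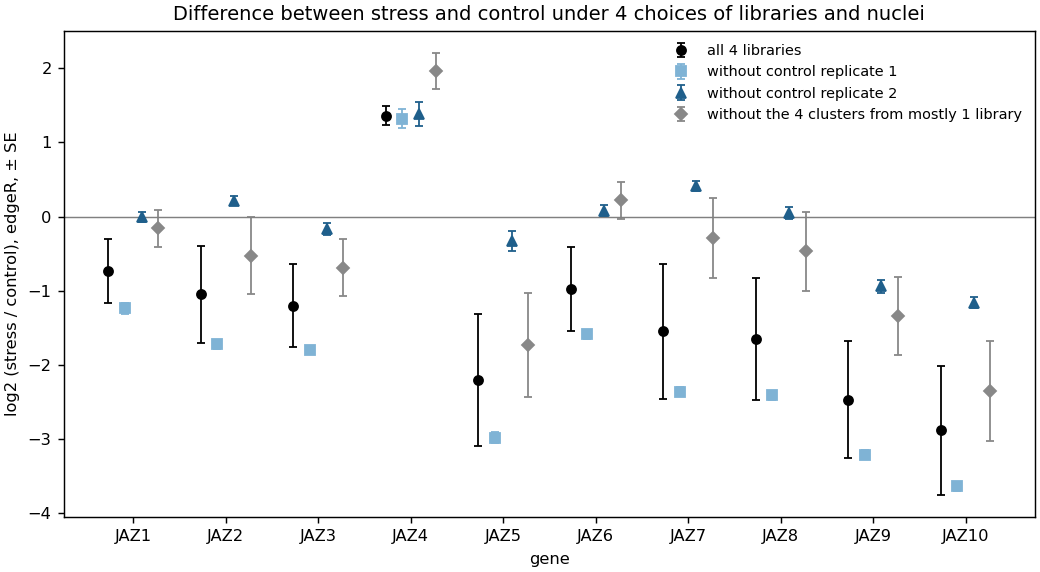
Log2 difference between stress and control (edgeR, bars ± SE) for JAZ1 to JAZ10 with all 4 libraries, without each control in turn, and without the 4 clusters to which mostly 1 library contributed. JAZ9 and JAZ10 lie below 0 and JAZ4 above 0 in all 4 fits, whereas JAZ2, JAZ7 and JAZ8 cross 0 without control replicate 2 (0.21, 0.41 and 0.05), as does JAZ6 there (0.08) and without those clusters (0.22).

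The makeup of the JAZ pool was set against JAZ1 to compare libraries whose total JAZ level differs. Per 100 JAZ1 counts there were 14.8, 35.3, 6.62 and 6.69 counts of JAZ10, the lowest in both stress libraries. For JAZ9 there were 8.66, 17.8, 4.43 and 4.67 counts per 100 JAZ1 counts, again lower in both stress libraries. For JAZ4 there were 1.22, 0.547, 3.22 and 3.21. Relative to JAZ1, the stress libraries thus held less JAZ9 and JAZ10 and more JAZ4 than either control, and JAZ3 and JAZ5 were also below both controls by smaller margins. JAZ7, at 27.6, 80.6, 36 and 37.7 per 100 JAZ1 counts, lay between the controls, as did JAZ2, JAZ6 and JAZ8, where the lower control and the nearest stress value of JAZ8 were both 10.3. These ratios carry no test.

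The same pattern was seen in how many nuclei held a JAZ transcript. With each nucleus thinned to 1000 RNA counts, 43.2%, 82.5%, 48.8% and 50.2% of nuclei held at least 1 count of any member (75%, 97.6%, 79.7% and 81.4% before thinning). JAZ10 was found in 5.79%, 28.5%, 2.98% and 2.95% of thinned nuclei, and JAZ9 in 3.42%, 15.7%, 1.83% and 2.06%. JAZ4 was found in 0.747%, 0.571%, 1.38% and 1.37%. Groups did not overlap for these 3 genes or JAZ5. The share of all genes without overlap was not counted for thinned nuclei. On the CPM scale 50.4% of genes lay above both controls and 18.7% below. With 2 libraries against 2 the exact two-sided permutation test gives p = 0.33, the smallest it can give. At least 3 different members were present in 9.8%, 45.6%, 7.82% and 8.86% of thinned nuclei, highest in control replicate 2. No root class is known to lack JAZ transcripts. S phase-like nuclei, the class with the lowest stress values, held any member in 21.8%, 49.1%, 15.1% and 12.2% of thinned nuclei, at median depths of 4742, 6812, 7108 and 7204 counts against 3863, 3248, 3680 and 3649 for all nuclei, so shares near these values cannot be told apart from free RNA.

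Nuclei were then clustered without the JAZ genes or the other genes of the jasmonate lists read below, and the 8 classes that had 20 or more nuclei in each library were compared. Genes outside those lists were kept even where they vary with the JAZ genes, so the clusters are not independent of the pathway. Class names rest on marker lists and end in -like. Of 20 clusters, 4 took at least 80% of their nuclei from 1 library. Clusters 5 and 8 (unnamed) and 12 (cortex-like, led by the jasmonate synthesis genes AOC2 and AOC1, tandem copies that may share reads) came mostly from control replicate 2, and cluster 14 (atrichoblast-like, led by heat shock genes) from control replicate 1. Cluster 5 had 2 of 7 iron-uptake epidermis markers, IRT1 and FRO2. Cluster 8 had 4 of 14 pericycle and stele markers and 2 procambium markers. Neither met the rule for a name, so control nuclei with these markers lie partly outside the named classes.

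In control replicate 2, clusters 5, 8 and 12 made up 20%, 17.2% and 12.3% of nuclei and held 30.6%, 14.6% and 23.3% of its JAZ counts. In control replicate 1 they made up 8.31%, 2.61% and 0.249% of nuclei and held 24.4%, 5.03% and 1.63% of JAZ counts. Without the 4 clusters the summed JAZ level was 617, 1506, 875 and 949 CPM, so control replicate 2 remained the highest library and control replicate 1 became the lowest. In that fit JAZ4 was called higher, at 1.96 ± 0.24 (adjusted p = 0.00606, edgeR), and JAZ10 lower, at -2.35 ± 0.67 (adjusted p = 0.0464, edgeR), among 41.7% of genes called. A mean over the 8 classes with the same weight for each was 1029, 2078, 826 and 850 CPM, with both stress libraries under both controls.

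**Figure D3:**
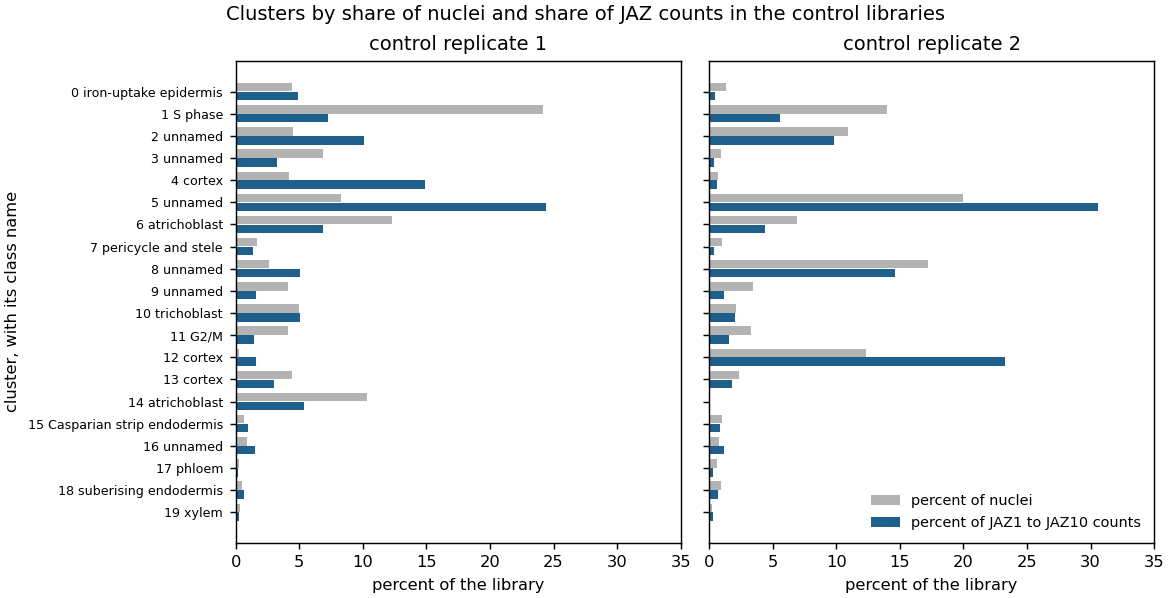
Share of nuclei (grey) and share of all JAZ1 to JAZ10 counts (blue), in percent of the library, for the 20 clusters in each control library. Clusters 5, 8 and 12 are large in control replicate 2 (20%, 17.2% and 12.3% of nuclei) and small in control replicate 1 (8.31%, 2.61% and 0.249%).

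In the stress libraries the summed JAZ level fell into a clear order of classes, with no overlap between neighbours. Cortex-like nuclei were highest (1691 and 1777 CPM), followed by iron-uptake epidermis-like (1303 and 1435), pericycle and stele-like (1040 and 1037) and Casparian strip endodermis-like nuclei (909 and 881). Trichoblast-like nuclei, of root hair cells, had 804 and 769 CPM, and atrichoblast-like nuclei, of hairless epidermis, had 421 and 415. G2/M-like nuclei had 274 and 326 CPM, and S phase-like nuclei were lowest at 165 and 157. Differentiated classes thus stood above dividing ones. In the controls cortex-like nuclei were also the highest of the 8 classes (2139 and 5489 CPM). G2/M-like (156 and 835) and S phase-like nuclei (202 and 732) were lowest, but the ranges of most other neighbours overlapped. Unnamed clusters are left out of this order, and cluster 5 among them stood above the cortex-like class in both controls (3528 and 5673 CPM). In every class the level was higher in control replicate 2 than in control replicate 1, from 1.23-fold in iron-uptake epidermis-like to 5.37-fold in G2/M-like nuclei. The clusters of the cortex-like class did not all follow. Cluster 4 had 4509 and 3945 CPM in the controls and cluster 13 had 544 and 1615. Cluster 12 held 8 and 755 control nuclei and had 6809 CPM in control replicate 2.

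Single members had their own class patterns. JAZ4 was highest in iron-uptake epidermis-like nuclei in all 4 libraries, at 27, 42.5, 28.4 and 33.7 CPM, with cortex-like nuclei next at 15.3, 9.96, 22 and 18.1. JAZ6, JAZ7 and JAZ8 were highest in cortex-like nuclei in all 4 libraries. JAZ5 was highest in pericycle and stele-like nuclei in 3 libraries (81.5, 31.9 and 30.1 CPM) and in cortex-like nuclei in control replicate 2 (95.7 CPM). JAZ3 was highest in trichoblast-like nuclei under stress (67.6 and 56.5 CPM). JAZ9 was highest in cortex-like nuclei in the controls (82.4 and 333 CPM) and in pericycle and stele-like nuclei under stress (47.9 and 50.9 CPM). In the latter class its groups overlapped, with 40.8 and 112 CPM in the controls from 6 and 17 counts. In control replicate 1 the cortex-like value was close to that of Casparian strip endodermis-like nuclei (74.3 CPM).

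Of 72 member and class pairs tested for stress against control, 11 were called lower and 0 higher. Over all genes tested in a class, 1.78% to 8.31% were called in either direction, and calls lower alone were not counted. JAZ10 gave 4 of the 11 pairs and JAZ9 gave 3, and DESeq2 also called those 4 of JAZ10. JAZ10 was below both controls in 8 of 8 classes, where 13.6% to 21.2% of the genes tested in a class were. JAZ4 was above both controls in 6 of 8 classes, a direction that was common among all genes tested. Among these 6, JAZ4 failed the filter on low counts in trichoblast-like (4 and 4 control counts) and Casparian strip endodermis-like nuclei (0 and 1). It also failed in pericycle and stele-like (0 and 0) and G2/M-like nuclei (0 and 2), so its direction there rests on very few counts. The share of tested genes above both was 47.1% in trichoblast-like, 43.7% in atrichoblast-like, 32.6% in iron-uptake epidermis-like, 44.4% in cortex-like and 25.6% in Casparian strip endodermis-like nuclei. It was 28.7% in pericycle and stele-like, 41.4% in G2/M-like and 41.6% in S phase-like nuclei.

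Casparian strip endodermis-like nuclei build the lignin barrier of the endodermis. JAZ10 had 282, 409, 33.1 and 29.6 CPM there and fell by 3.58 ± 0.33 on the log2 scale (adjusted p = 0.000756, edgeR). The controls were closer to each other than to either stress library. JAZ9 (74.3, 113, 11 and 18.2 CPM) fell by 2.90 ± 0.44, JAZ5 by 2.77 ± 0.53, JAZ7 by 1.71 ± 0.37 and JAZ2 by 1.64 ± 0.29. These were 5 of 8 members tested, against 3.45% of genes called in either direction, and 7 members lay below both controls, as did 20% of genes. DESeq2 called JAZ10 alone here, so the calls of JAZ2, JAZ5, JAZ7 and JAZ9 were lost. Control replicate 1 had only 20 such nuclei, with 19 JAZ10 counts, 5 of JAZ9 and 3 of JAZ5. JAZ10 was called in this class with any 1 library left out, whereas JAZ9 was lost without control replicate 2 (adjusted p = 0.286, edgeR) and stress replicate 1 (0.13), JAZ2 and JAZ5 without stress replicate 1 (0.537 and 0.398) or 2 (0.59 and 0.151), with JAZ5 under the filter without control replicate 2, and JAZ7 without any library but control replicate 1 (0.301 to 0.753).

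In pericycle and stele-like nuclei, from the inner tissues, JAZ10 had 115, 224, 43.4 and 44.3 CPM and fell by 1.98 ± 0.30 (adjusted p = 0.00338, edgeR). JAZ8 had 61.1, 184, 34.4 and 42.1 CPM and fell by 1.71 ± 0.39 (adjusted p = 0.0384, edgeR). These were 2 of 9 members tested, against 1.78% of genes, and 5 members lay below both controls (20.2% of genes). JAZ10 was called here too with any 1 library left out, at -1.38 without control replicate 2, whereas JAZ8 was lost without control replicate 2 (adjusted p = 0.637, edgeR) and stress replicate 1 (0.0696). The controls had 55 and 62 such nuclei, with 17 and 34 JAZ10 counts. Cluster 8, which had 4 of 14 markers of this class but no name, held 84, 1055, 19 and 15 nuclei outside it. Its summed JAZ level in the controls was 2890 and 3392 CPM, against 1250 and 2114 in the class. The class thus does not cover all control nuclei with such markers.

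In cortex-like nuclei JAZ10 had 161, 584, 42 and 47.1 CPM and fell by 3.30 ± 0.59 (adjusted p = 0.0326, edgeR). JAZ9 had 82.4, 333, 34.7 and 38.6 CPM and fell by 2.75 ± 0.62 (adjusted p = 0.0497, edgeR). These were 2 of 10 members, against 7.72% of genes, and 9 members lay below both controls (17% of genes), JAZ4 alone lying above both. Cluster 12 held 755 of the 941 cortex-like nuclei of control replicate 2, and cluster 4 most of those of the stress libraries. Without cluster 12 the log2 differences were -2.32 for JAZ10 and -1.52 for JAZ9, both called. Without stress replicate 1 or 2 neither was called (log2 differences of -3.22 and -3.38 for JAZ10 and -2.67 and -2.81 for JAZ9), in fits that called 0.575% and 0.602% of genes.

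In iron-uptake epidermis-like nuclei, marked by the iron transporter gene IRT1, 8 of 10 log2 differences lay between -0.59 and -0.07. JAZ10 was called, with 36, 75.5, 13.7 and 17.4 CPM and a fall of 1.69 ± 0.37 (adjusted p = 0.0165, edgeR). It was 1 of 10 members tested, against 4.55% of genes, and 5 members lay below both controls (21.2% of genes). Without stress replicate 1 or 2 the log2 difference was -1.54 or -1.88, and 0 of 9655 and 0 of 9659 genes were called in those fits. At resolution 1.0, where the class held 28 nuclei of control replicate 2 in place of 81, JAZ10 was not called. In the class at resolution 0.6 each control had 16 JAZ10 counts. JAZ9 there had 15.7, 28.3, 17.2 and 21.4 CPM and a log2 difference of -0.08 ± 0.44 (adjusted p = 0.956, edgeR), with overlapping groups.

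S phase-like nuclei had 1 call among 9 members, against 7.06% of genes, for JAZ9, with 5.15, 16.8, 1.34 and 2.33 CPM and a fall of 2.79 ± 0.63 (adjusted p = 0.0351, edgeR). JAZ10 missed the threshold at 17.1, 103, 9.4 and 8.46 CPM (adjusted p = 0.0507, edgeR). Of the members, 6 lay below both controls (15.8% of genes). The JAZ9 call was lost without stress replicate 1 or 2 (log2 differences of -2.41 and -3.18), in fits that called 1.31% and 0.794% of genes.

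The remaining classes had 0 calls among the members, and in each of them JAZ10 had negative log2 differences and non-overlapping groups. Trichoblast-like nuclei had 8 members tested, with JAZ10 at 25, 187, 18.1 and 21.7 CPM, and 8.31% of genes were called. There 2 members, JAZ9 and JAZ10, lay below both controls (15.9% of genes). Atrichoblast-like nuclei had JAZ10 at 23.4, 127, 21.8 and 21.8 CPM, and it alone of 10 members lay below both controls (13.6% of genes, with 6.35% called). G2/M-like nuclei had JAZ10 at 15.1, 102, 10.6 and 13 CPM, and 2 of the members lay below both controls (14.4% of genes, with 7.61% called).

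**Figure D4:**
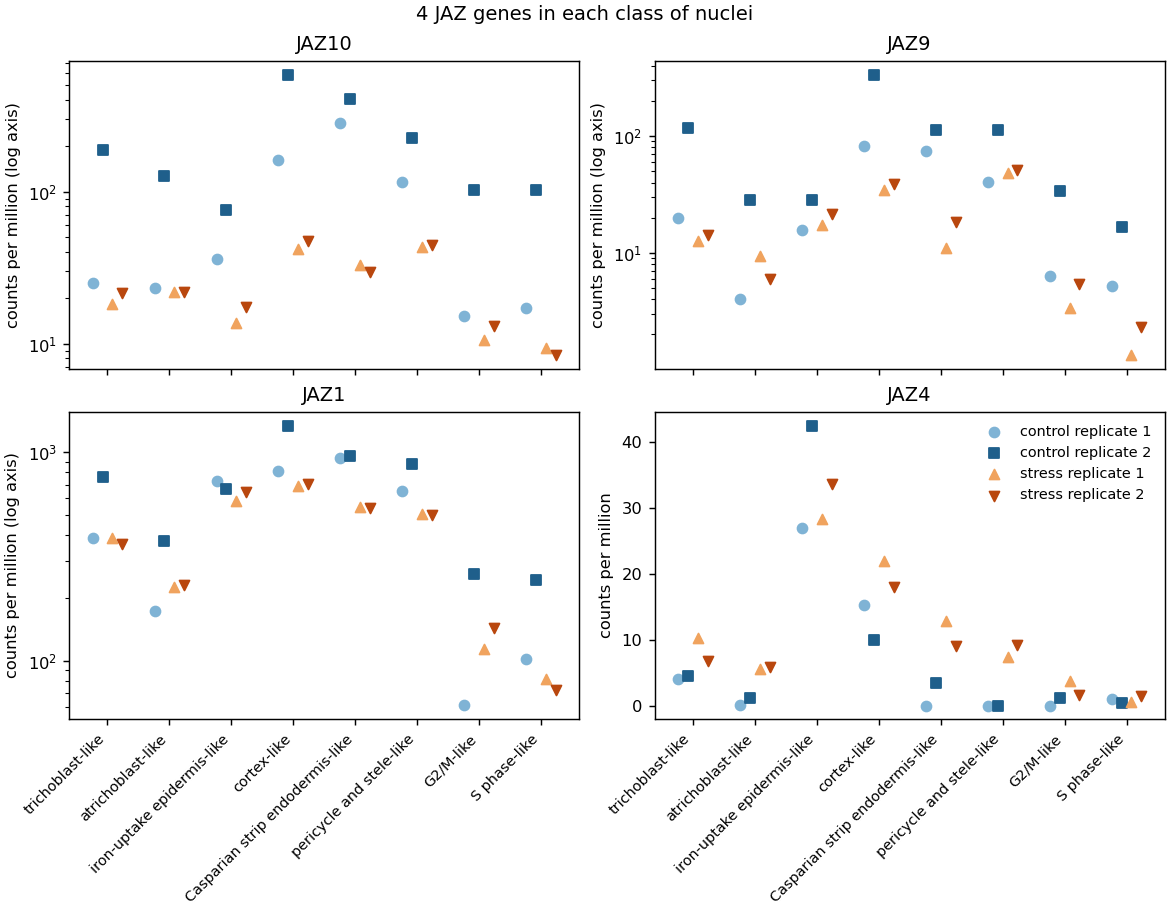
RNA level (CPM) of JAZ10, JAZ9, JAZ1 (log axes) and JAZ4 (linear axis) in the 8 classes, with 1 point per control (blue) and stress (orange) library. Both stress points of JAZ10 lie below both control points in all 8 classes, and those of JAZ4 above both in 6, in some of which its counts were too low to test.

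Whether the difference between stress and control itself differed between a class and all other nuclei was tested with an interaction term in 80 member and class pairs, of which 6 were called. The shares of all genes called by this term were 4.77% for trichoblast-like, 3.07% for atrichoblast-like, 1.96% for iron-uptake epidermis-like and 0% for cortex-like nuclei. They were 0.0467% for Casparian strip endodermis-like, 0.558% for pericycle and stele-like, 6.92% for G2/M-like and 1.39% for S phase-like nuclei. The 6 pairs are given in the closing section. JAZ10 did not pass in Casparian strip endodermis-like or cortex-like nuclei, so the larger falls given for those classes are not shown to exceed the fall elsewhere.

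JAZ4 was read inside and outside the class in which it is most abundant. Iron-uptake epidermis-like nuclei were 4.45%, 1.32%, 26.7% and 27.6% of nuclei and held 16%, 6.52%, 47.8% and 53.1% of JAZ4 counts. Cluster 5, which had 2 markers of this class but no name, held 267, 1226, 6 and 13 nuclei outside the class. These shares thus do not cover all nuclei with such markers. Within the iron-uptake epidermis-like class JAZ4 had a log2 difference of -0.08 ± 0.35 (adjusted p = 0.939, edgeR). Outside it JAZ4 had 3.68, 4.33, 8.38 and 8.08 CPM and a log2 difference of 0.82 ± 0.16 that was not called (adjusted p = 0.0629, edgeR, 4.48% of genes called). Both stress libraries lay above both controls outside the class, as did those of 50.8% of genes. JAZ4 passed the filter for testing in 3 classes. In atrichoblast-like nuclei it had 0.184, 1.28, 5.66 and 5.94 CPM, from 1, 5, 14 and 12 counts, and a log2 difference of 2.83 ± 0.67 that was not called (adjusted p = 0.0589, edgeR). It was called there without the clusters from mostly 1 library (2.45, adjusted p = 0.0198, edgeR), at resolution 1.0 (3.12) and with no filter on low counts (2.78). The call of JAZ4 in whole libraries was also absent with nuclei thinned to 1000 counts and with the limits on peak counts added.

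The rest of the pathway was read from lists of known genes in the same fit. The receptor and repressor machinery was even across libraries, with 0 of 10 genes called. COI1, the receptor, had 33.3, 30.5, 32 and 34.9 CPM and a log2 difference of -0.13 ± 0.11 (adjusted p = 0.442, edgeR). NINJA, the adaptor, had 45.5, 50.9, 41 and 41.5 CPM and a log2 difference of -0.43 ± 0.11 (adjusted p = 0.0741, edgeR). Of the list, 0 genes differed by over 2-fold between the controls, unlike 9 of 10 JAZ members.

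Of the bHLH factors that JAZ proteins bind, 1 of 6 tested was called. MYC4 had 11, 9.34, 18.8 and 21 CPM and rose by 0.77 ± 0.14 (adjusted p = 0.0492, edgeR). MYC2, the main activator of the pathway, had 185, 246, 193 and 208 CPM and a log2 difference of -0.30 ± 0.17 (adjusted p = 0.267, edgeR). The list had 0 calls in the other direction.

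The 3 family members outside the set, JAZ11, JAZ12 and JAZ13, were not called. JAZ13, an EAR-type protein like JAZ8, had 2.56, 22.5, 1.48 and 2.02 CPM (log2 difference -3.06 ± 1.06, adjusted p = 0.128, edgeR) and so shared the pattern of JAZ10. JAZ11 had 10.8, 13.8, 17 and 17.6 CPM, and JAZ12 had 45.3, 82.5, 85.1 and 86.7 CPM, with both stress libraries above both controls in each.

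Genes of jasmonate synthesis had 0 of 13 called, and 13 of 13 were higher in control replicate 2 than in control replicate 1, with a median ratio of 2.02. The list summed to 753, 1601, 868 and 917 CPM, so that, as for the JAZ genes, the stress libraries lay between the controls. Genes of jasmonate turnover had 1 of 9 called and a median ratio of 5.04 between the controls. That gene was ST2A, a sulfotransferase of hydroxylated jasmonate, at 14.9, 22.3, 4.67 and 5.15 CPM, and it fell by 2.13 ± 0.23 (adjusted p = 0.0246, edgeR). Of the known response genes 0 of 10 were called, and their median ratio between the controls was 2.37.

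In the branch shared with ethylene, 1 of 2 genes was called, the activator ORA59. It had 0.114, 0.234, 6.89 and 5.88 CPM and rose by 4.87 ± 0.32 (adjusted p = 0.0177, edgeR), with both controls near the floor. Of the wound and touch list, 1 of 8 was called, the calmodulin-like TCH3, which had 148, 229, 63.2 and 63.8 CPM and fell by 1.77 ± 0.23 (adjusted p = 0.0313, edgeR). Of the osmotic and abscisic acid list 4 of 7 were called, all higher, with P5CS1 up by 1.36, the dehydrin gene RAB18 by 2.54, RD29B by 3.64 and the sodium transporter gene HKT1 by 2.89. RAB18 (0.171, 0.3, 1.64 and 1.71 CPM) and RD29B (0.114, 0.0667, 1.59 and 0.916 CPM) were near the floor. The tested genes not called had log2 differences of 0.18, -0.29 and -1.08, the last with both stress libraries below both controls. HKT1 is among the leading genes of the pericycle and stele-like cluster, which was 1.71%, 1.01%, 7.35% and 7.76% of nuclei, and the part of this share in its rise was not tested.

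The genes whose level most resembled the members' mean were sought over the 32 sums of class and library, among 8461 genes with a mean of at least 20 CPM. The sums share libraries and depth, so the Pearson correlations describe likeness only. CYP94B3, which oxidises jasmonoyl-isoleucine, was first (r = 0.97), with 68.3, 433, 75 and 88.6 CPM in whole libraries. ESL1, a vacuolar sugar transporter gene, followed (r = 0.96), then the transcription factor gene ERF109 (0.95), AT1G78280 (0.95) and AT5G52050 (0.94). All 5 had their highest value in control replicate 2.

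Chromatin accessibility at the JAZ gene starts was compared as a readout of the same nuclei. Of 27679 merged regions, 9 lay from 1000 bases before to 250 bases after the start of 8 members, with none at JAZ7 or JAZ10. The 4 regions called in all 4 libraries, at JAZ2, JAZ4, JAZ5 and JAZ8, were among 18340 tested. Values are CPM of peak counts. JAZ2 (chr1:28150671-28151561) had 89.3, 94.5, 81.2 and 77.5 and a log2 difference of -0.14 ± 0.08 (adjusted p = 0.39, edgeR). JAZ5 (chr1:5957687-5958651) had 61.1, 77.6, 66.5 and 65.1, and a log2 difference of -0.03 ± 0.13 (adjusted p = 0.92, edgeR). JAZ8 (chr1:10595495-10596547) had 35.7, 41, 31 and 36.3, with a log2 difference of -0.14 ± 0.12 (adjusted p = 0.578, edgeR). The JAZ8 region spans the G-box printed above, while the JAZ2 region ends, toward the gene, before its G-box.

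JAZ4 (chr1:17930832-17931675) had 35.9, 27.6, 30.3 and 30.7 and a log2 difference of 0.04 ± 0.10 (adjusted p = 0.863, edgeR), while its transcript was higher under stress. None of the 4 regions was called by edgeR (0 at an unadjusted p under 0.05) or by DESeq2, and 0.213% of all regions were called by edgeR. At JAZ2, JAZ5 and JAZ8 accessibility differed less between the controls than RNA did, and at JAZ4 it differed more (35.9 and 27.6, against 4.27 and 4.6 CPM of RNA). Control replicate 1 was much shallower here, with a median of 679 peak counts per nucleus against 3592, 3838 and 4006. Leaving it out gave 3 calls, JAZ2 (-0.24), JAZ5 (-0.23) and JAZ8 (-0.28), and leaving out control replicate 2 gave 1, JAZ5 in the other direction (0.25).

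**Figure D5:**
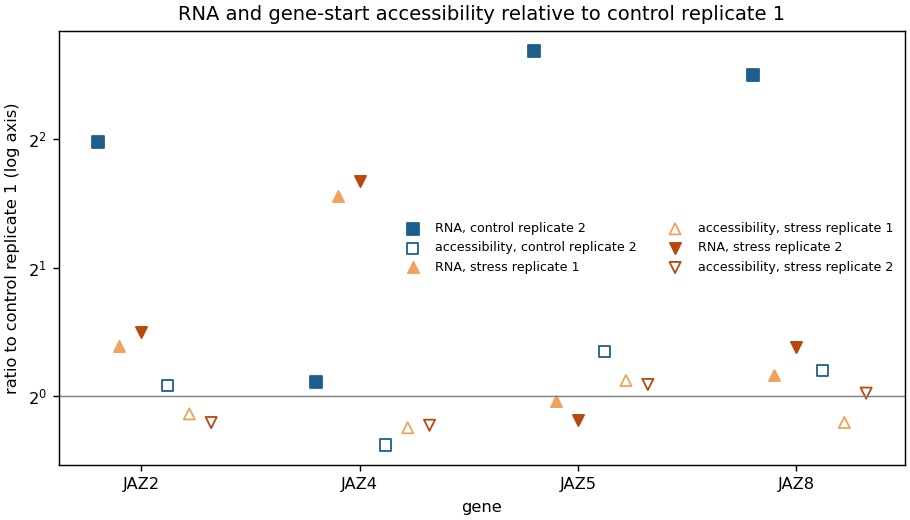
Ratio to control replicate 1 (log axis) of RNA (filled) and of accessibility at the gene start (open) for the 4 members with a region in every library, in control replicate 2 and both stress replicates. RNA of JAZ2, JAZ5 and JAZ8 in control replicate 2 lies 3.94, 6.43 and 5.66 times above control replicate 1, while accessibility stays near 1.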

How the data were processed

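RNA and accessible chromatin were sequenced from 4 libraries of root tip nuclei. The authors ran Cell Ranger ARC 2.0.2 on each library against TAIR10 and deposited raw counts of RNA molecules per gene and of cut sites per peak, and the annotation version is not given in the sources used here. Barcodes were kept by the study's limits on RNA counts, and its limits on peak counts were an alternative. Counts were summed per library, or per class and library, and tested with edgeR 4.0.16 in R 4.3.3 (TMM scaling, filterByExpr, quasi-likelihood test, Benjamini-Hochberg adjustment over all genes). The SE of a log2 difference is its size over the square root of F.

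Nuclei of all libraries were grouped by leidenalg 0.10.2 in scanpy 1.11.5 at resolution 0.6 from their RNA, leaving out the members and the genes of the jasmonate lists. A class name needed at least 3 markers of its list, each in at least 10% of nuclei at over 2 times the level of other nuclei, 20% of the list and a lead of 1.5 over the next class. Nuclei with the highest doublet scores were removed only in an alternative, at 0.8% per 1000 nuclei, since the automatic threshold had not worked. Peaks were merged across libraries where they overlapped.

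The members, the gene lists and the tests were chosen with earlier results of these data known. Named genes are the 10 members, every gene of a list past the threshold (up to 5 with the largest change), COI1, NINJA, MYC2, JAZ11, JAZ12 and JAZ13, and the 5 genes most correlated with the members. WRKY40 and the genes that mark or lead a cluster were named in addition. Alternatives were DESeq2 1.42.0, other scaling, filters and nuclei, resolution 1.0, the replicate number as a block and leaving out each library. Leaving out clusters from mostly 1 library or the iron-uptake epidermis-like nuclei was chosen after seeing the data.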

Additional observations from a re-analysis of the deposited data

Results flagged for a closer look

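A class by stress term past the threshold was found for 6 member and class pairs, each positive, so that the difference between stress and control was less negative in the class than in all other nuclei. The term was 1.53 for JAZ9 and 1.06 for JAZ10 in atrichoblast-like nuclei, where neither gene was called within the class. It was 1.57 for JAZ8 and 2.23 for JAZ9 in iron-uptake epidermis-like nuclei, where the JAZ9 groups overlapped (15.7, 28.3, 17.2 and 21.4 CPM). It was 2.01 for JAZ9 in pericycle and stele-like nuclei and 1.06 for JAZ3 in G2/M-like nuclei. The other nuclei against which a class was set include clusters 5, 8 and 12, with high JAZ levels and mostly from control replicate 2. Without the clusters from mostly 1 library, of these 6 only JAZ9 in iron-uptake epidermis-like nuclei was called (1.18, adjusted p = 0.0267, edgeR), while 16 pairs were called in all. Of those 16 the term was positive in 2 and negative in 14, among them 6 in S phase-like and 5 in trichoblast-like nuclei. The 14 were other pairs than the 6 first called, whose terms all stayed positive (0.32 to 1.18).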

How the results depend on the processing

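With 2 libraries a group and controls that differ by several-fold in 9 members, the spread between the controls limits every test, and a member that was not called may still differ. The number of genes called in whole libraries was 2033, and it became 622 at 1000 counts per nucleus, 969 with the limits on RNA and peak counts, 3055 with every deposited barcode, 3404 with DESeq2 (1839 higher and 1565 lower, against 1400 and 633), 8457 without the clusters from 1 library (4469 and 3988), 915 without iron-uptake epidermis-like nuclei, and 0 to 12744 with 1 library left out. Members called higher went from 1 to 0 at 1000 counts per nucleus, with the limits on RNA and peak counts and without iron-uptake epidermis-like nuclei, and were 0 to 3 with 1 library left out. Members called lower went from 0 to 2 with DESeq2 (JAZ9 at -2.49 and JAZ10 at -2.89), to 1 without the clusters from 1 library, and to 0 to 9 with 1 library left out. The log2 difference of some members reversed when control replicate 2 was left out, and with 1 library left out it ran from -1.72 to 0.21 for JAZ2, -1.59 to 0.08 for JAZ6, -2.36 to 0.41 for JAZ7 and -2.41 to 0.05 for JAZ8, and JAZ6 reversed also without the clusters from 1 library (0.22). The log2 difference of the summed level was -0.72 and ran from -1.68 to 0.25 with 1 library left out, the sign turning without control replicate 2.

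Member and class pairs called lower went from 11 to 2 with 50 nuclei per library (37 pairs in 7 classes), 22 with the limits on RNA and peak counts, 35 with no filter on low counts, 17 at resolution 1.0 and 3 to 56 with 1 library left out. Pairs called higher went from 0 to 1 with no filter, at resolution 1.0 and without the clusters from 1 library, and were 0 to 5 with 1 library left out. Pairs with a class by stress term went from 6 to 12 with the limits on RNA and peak counts, 16 without the clusters from 1 library and 0 to 30 with 1 library left out. Regions called at the members went from 0 to 3 at most with 1 library left out, and stayed at 0 in the other alternatives.

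The replicate numbers come from the labels alone, and deviations of the replicates with the same number correlated at 0.10 over 20587 genes, so the numbers were not taken to pair libraries. With a replicate block 1373 genes, 1 member higher and 0 lower, 21 class pairs lower and 1 higher, and 0 member regions were called. The causes of these shifts were not tested.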
